A study of Bos taurus with 26 samples.

Results

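Endometrium of cows labelled parity 4 was compared with endometrium of cows labelled parity 3, parity being the number of calvings. The 11 libraries were chosen by the labelled tissue and parity, 6 of parity 4 and 5 of parity 3, out of 26 libraries in the series. All were polyadenylated RNA from biopsies of the ipsilateral uterine horn, taken on day 13 of the oestrous cycle, from cows of a high-fertility line (Fert+) or a low-fertility line (Fert-). Parity 4 held 3 Fert+ libraries (5, 10 and 12) and 3 Fert- libraries (3, 6 and 14), and parity 3 held 3 Fert+ libraries (1, 2 and 4) and 2 Fert- libraries (9 and 11), by the numbers in their titles. The 3 endometrium libraries of parity 2 (Fert+ 7 and 13, Fert- 8) served to show the direction. They entered a fit of this contrast only in alternative runs over all 14 endometrium libraries. The labels give no age and tie no library to a cow, so p-values measure only the spread between these libraries, which may in part be technical.

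The endometrium lines the uterus and holds a surface and glandular epithelium over a stroma with vessels and immune cells. In the mid-luteal phase, progesterone from the corpus luteum brings the glands to secrete the fluid on which a conceptus depends before it attaches. After each calving the lining is shed in part and rebuilt, and parity counts how often this has happened. The files name genes by Ensembl ID only and the gene table used here held none of these IDs (0 matches), so IDs are given without a gene name, function or sequence. In tissue RNA, fewer cells of a type and less RNA per cell cannot be told apart.

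Batch and parity nearly coincided. The labels number the batches without saying what they were. Batch 1 held parity 4 libraries 6, 10 and 14, and batch 2 held parity 4 libraries 3 and 5. Batch 4 held parity 3 libraries 1 and 4. Batch 3 alone held both: parity 4 library 12 (Fert+) beside parity 3 libraries 2 (Fert+), 9 and 11 (Fert-). Of the parity 2 libraries, 7 and 13 belong to batch 1 and 8 to batch 4. Outside batch 3 a parity difference and a batch difference therefore cannot be told apart.

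Total counts ran from 9627378 to 16580572 at parity 4 and from 10964267 to 14965262 at parity 3. A set of 25 IDs restricted to endometrium took 0.755% to 1.80% of the counts in the 14 endometrium libraries, and a set of 17 IDs restricted to corpus luteum took 0.00865% to 0.0148%. The sets (at least 100 CPM, read counts scaled to library size, in one tissue and at least 100-fold lower in the other) were defined over these same libraries without regard to parity, so the low luteal share is in part fixed by the choice. None of the 25 pairs of libraries of one parity looked like a duplicate, the lowest chi-square per degree of freedom being 23.5.

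No ID passed the test between parity 4 and parity 3. With line as covariate, edgeR's quasi-likelihood test called 0 of 14192 tested IDs (0%; lowest adjusted p = 0.120), limma-voom called 0, and DESeq2 called 276 (1.94%; 147 higher and 129 lower at parity 4). In edgeR the unadjusted p was under 0.05 for all 276. That mark was met by 1654 IDs (11.7% of those tested), 858 higher and 796 lower at parity 4, where a uniform distribution would give 710. The IDs share the same libraries, so the count may not follow that number, and no excess was tested. The median absolute log2 difference over all tested IDs was 0.15, beside a median standard error (SE) of 0.16, and 615 IDs differed by more than 1 on the log2 scale.

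The share of IDs at an unadjusted p under 0.05 was 14.6% of the 1854 IDs above 100 CPM, with 177 higher and 94 lower at parity 4. It was 11.4% of the 8108 IDs from 10 to 100 CPM (461 higher, 463 lower) and 11.3% of the 3956 IDs from 1 to 10 CPM (217 higher, 230 lower). Among the 274 IDs under 1 CPM it was 4.38%, with 3 higher and 9 lower. Higher and lower IDs were thus about equally many below 100 CPM, and the more abundant IDs at this mark lay more often above 0. The differences at this mark were moderate: their median size was 0.39 on the log2 scale above 100 CPM and 1.07 from 1 to 10 CPM, where the pooled spread between libraries of one parity was also wider (median SD of log2 CPM 0.18 and 0.45).

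The ID with the smallest p was ENSBTAG00000003458, which was lower at parity 4. It stood at 69.6, 75.8, 46.9, 74.0, 71.0 and 66.7 CPM in parity 4 libraries 3, 5, 6, 10, 12 and 14, and at 124, 164, 126, 112 and 143 CPM in parity 3 libraries 1, 2, 4, 9 and 11. The groups did not overlap: the highest parity 4 library, 5, lay below the lowest parity 3 library, 9. The log2 difference was -0.97 (SE 0.12, edgeR adjusted p = 0.120), from 67.3 ± 10.5 CPM (SD, n = 6) against 134 ± 20.3 CPM (SD, n = 5). DESeq2 called this ID (adjusted p = 1.9e-08), while limma-voom did not (adjusted p = 0.130). Within batch 3, as the difference of mean log2 CPM between library 12 and libraries 2, 9 and 11 (1 library against 3, no test), it was -0.95. This and later differences within batch 3 leave line out unless line is named: libraries 12 and 2 are Fert+, and 9 and 11 Fert-. With line in a fit of batch 3, library 12 stood against library 2 and the log2 difference was -1.22. In the edgeR fit without batch 1 it was -0.90 (SE 0.13, adjusted p = 0.458). The parity 2 libraries 7, 8 and 13 were at 67.2, 48.8 and 109 CPM, so 2 of them lay among the parity 4 values and 1 between the groups. Corpus luteum did not repeat the difference. There the ID was at 12.7 ± 6.08 CPM (SD, n = 5) at parity 4 and 11.1 ± 4.03 CPM (SD, n = 5) at parity 3. The luteal log2 difference was 0.08 (edgeR adjusted p = 0.965).

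ENSBTAG00000019386 was the second lower ID. It stood at 168, 81.7, 166, 86.5, 112 and 116 CPM in parity 4 libraries 3, 5, 6, 10, 12 and 14 and at 389, 235, 372, 233 and 276 CPM in parity 3 libraries 1, 2, 4, 9 and 11. Again the groups did not overlap, and the batch 4 libraries 1 and 4 were the highest of parity 3. The log2 difference was -1.36 (SE 0.24, edgeR adjusted p = 0.277), and within batch 3, computed as above, it was -1.14. The parity 2 libraries spread over both groups, at 68.9, 137 and 308 CPM in libraries 7, 8 and 13. In corpus luteum the same ID was at 106 ± 44.6 CPM (SD, n = 5) at parity 4 and 158 ± 48.3 CPM (SD, n = 5) at parity 3 (log2 difference -0.77, edgeR adjusted p = 0.811). The higher IDs described next were scarce in corpus luteum and not in its fit. ENSBTAG00000038532 averaged 0.33 CPM there at parity 4 and 0.42 at parity 3, and ENSBTAG00000047815 0.05 and 0.08.

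ENSBTAG00000038532 was the higher ID with the smallest p and one of the 25 endometrium-restricted IDs. It stood at 762, 1041, 925, 1450, 509 and 1370 CPM in parity 4 libraries 3, 5, 6, 10, 12 and 14, and at 311, 394, 238, 380 and 336 CPM in parity 3 libraries 1, 2, 4, 9 and 11. All parity 4 libraries were above all parity 3 libraries, with the 3 highest in batches 1 and 2 and the lowest, library 12, in batch 3. The log2 difference was 1.61 (SE 0.27, edgeR adjusted p = 0.277), and DESeq2 called the ID (adjusted p = 6.2e-06). Within batch 3 it shrank to 0.46, and with batch in the edgeR model it was 0.25 (SE 0.26, adjusted p = 0.978). Parity 2 libraries 7, 8 and 13 held 163, 734 and 600 CPM, below, above and above the parity 3 range.

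ENSBTAG00000047815 was scarce at parity 3, with 1 to 6 reads per library. It stood at 0.103, 0.457, 0.176, 0.343 and 0.0647 CPM in parity 3 libraries 1, 2, 4, 9 and 11, and at 1.04, 2.45, 3.51, 15.7, 1.64 and 4.196 CPM in parity 4 libraries 3, 5, 6, 10, 12 and 14. The groups did not overlap, although library 10 alone reached more than 5 CPM. The log2 difference was 4.31 (SE 0.80, edgeR adjusted p = 0.277), a fold that rests on few reads. It was 3.37 (SE 0.57) without library 10 alone, 2.74 (SE 0.54) without batch 1, and 1.54 (SE 0.65) with batch in the model. Parity 2 libraries 7 and 13, of batch 1, were at 0.409 and 0.202 CPM, within the parity 3 range, and library 8 was at 3.56 CPM.

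**Figure D1:**
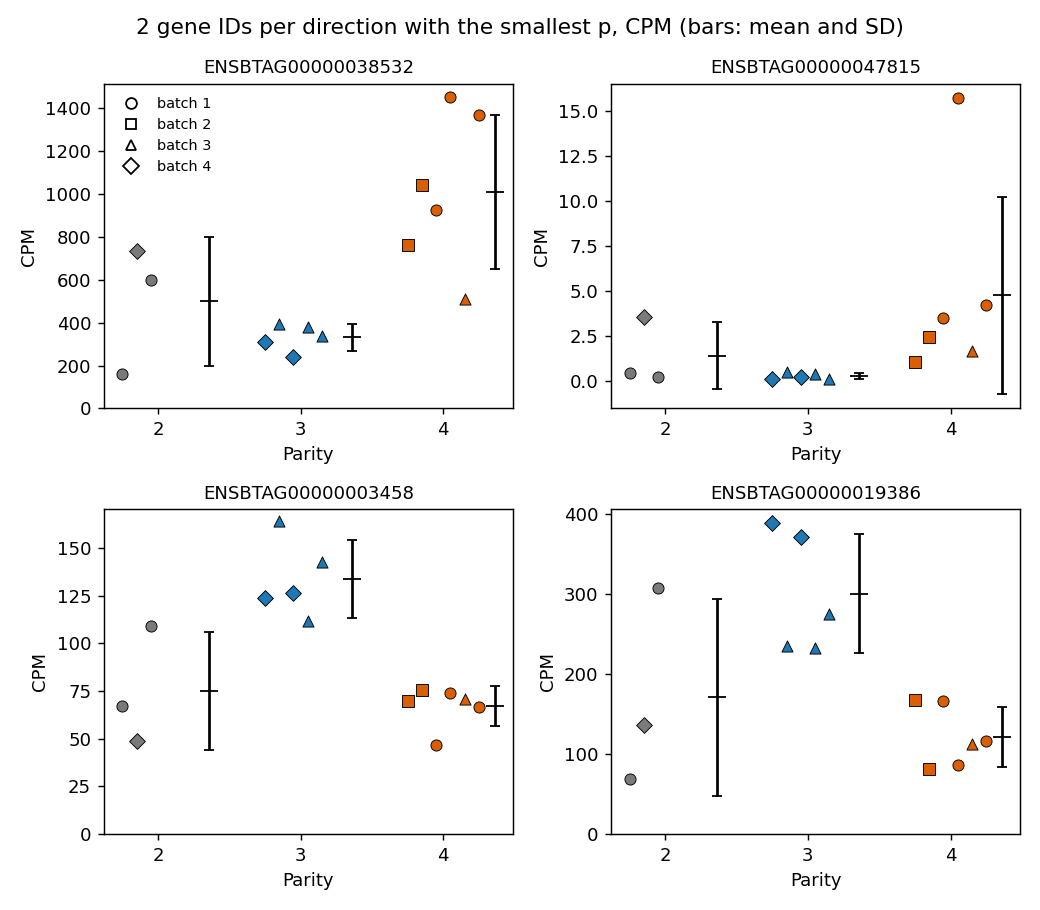
CPM (vertical axis) of the 2 higher and 2 lower gene IDs with the smallest p, for each endometrium library by parity (horizontal axis; colours are parities, shapes are batches, bars are the mean and SD). Parity 4 and parity 3 do not overlap for any of the 4 IDs, and the parity 2 libraries spread over both, as for ENSBTAG00000019386 at 68.9 to 308 CPM.

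Non-overlap of this kind was seen for 194 of the 14192 tested IDs (1.37%), 82 with every parity 4 library above every parity 3 library and 112 with every one below. DESeq2 called 104 of the 194. No ID was at 1 CPM or more in every library of one parity with 0 counts in all libraries of the other. The parity 2 libraries, which did not choose these IDs, seldom followed the order of parity: their mean was below that of parity 3 for 5 of the 82 higher IDs and above it for 4 of the 112 lower IDs. For the other 185 the mean of parity 2 lay on the parity 4 side of the parity 3 mean, and for 53 of these it went past the parity 4 mean. Because the IDs were chosen for parity 3 lying at one end, another group falls between or toward parity 4 in part by that choice.

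The 858 higher and 796 lower IDs at an unadjusted p under 0.05 were read in each library as the mean log2 CPM minus the mean of the 11 libraries. The sign at parity 3 and 4 follows from the choice of the IDs. The 11 libraries chose the IDs and the parity 2 libraries did not, so parity 2 lies nearer the middle in part by that choice. A library far out in its parity also weighs in the choice, so distances inside a parity are in part set by it. The 858 higher IDs stood at 0.60, 0.75 and 0.72 in parity 4 libraries 6, 10 and 14, all of batch 1. In parity 4 libraries 3, 5 and 12, of batches 2 and 3, they stood at 0.04, -0.09 and -0.08. Parity 3 libraries were at -0.56 and -0.46 in batch 4 (1 and 4) and at -0.36, -0.23 and -0.32 in batch 3 (2, 9 and 11). The 3 batch 1 libraries of parity 4 were therefore farther from the other parity 4 libraries than those were from parity 3. Batch 1 libraries of parity 2 did not share this level: 7 and 13 stood at 0.01 and -0.04, beside 0.10 in library 8 of batch 4.

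For the 796 lower IDs library 1 of parity 3 was farthest out, and parity 4 libraries 3, 5 and 12 lay closer to libraries 6, 10 and 14 than to the mean of parity 3. They stood at -0.56, -0.54 and -0.51 in libraries 6, 10 and 14 and at -0.16, -0.16 and -0.12 in libraries 3, 5 and 12. Library 1 was the highest at 0.83, library 4 (also batch 4) was at 0.50, and libraries 2, 9 and 11 were at 0.23, 0.29 and 0.20. Parity 2 libraries 7, 8 and 13 were at -0.33, 0.10 and 0.01, so library 7 lay with parity 4 and the other two between the parities. Over all tested IDs the same value stayed within -0.07 and 0.04 in every endometrium library.

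**Figure D2:**
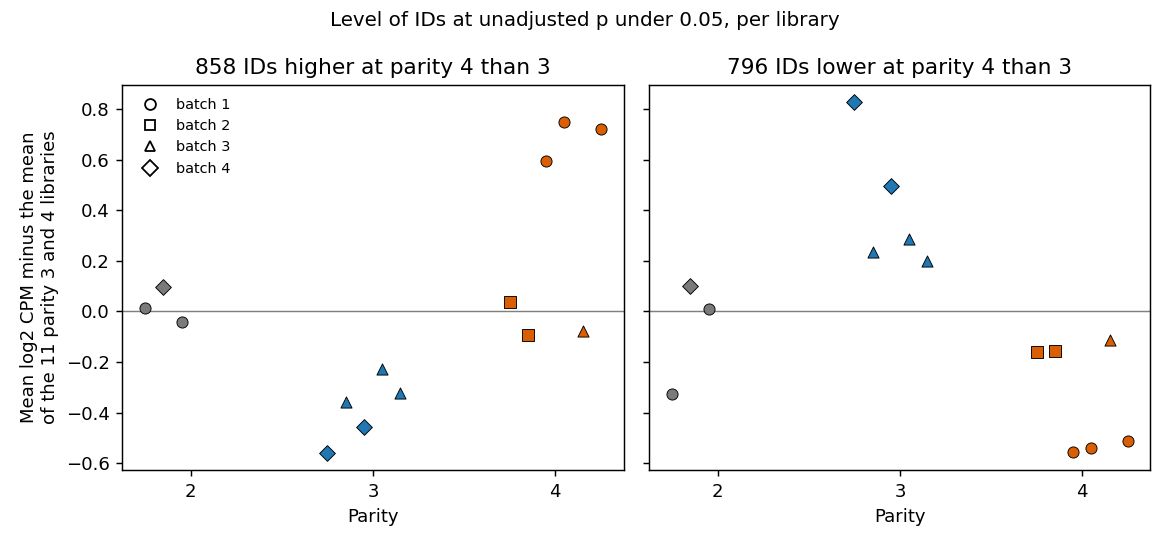
Mean log2 CPM of the 858 higher (left) and 796 lower (right) IDs at an unadjusted p under 0.05, minus the mean of the 11 libraries of parity 3 and 4 (vertical axis), for each library by parity (horizontal axis; shapes are batches). The 3 parity 4 libraries of batch 1 stand apart at 0.60 to 0.75 and -0.56 to -0.51, and the batch 1 libraries of parity 2 lie between -0.33 and 0.01.

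A principal component analysis of the tested IDs gave the same picture. On the first component (34.9% of the variance), parity 4 libraries 6, 10 and 14 scored 33.1, 52.1 and 54.9, and parity 4 libraries 3, 5 and 12 scored -5.21, -4.75 and -8.61. Parity 3 libraries scored -54.2 and -26.4 in batch 4 (1 and 4) and -19.0, -10.6 and -11.4 in batch 3 (2, 9 and 11). Every parity 4 score was above every parity 3 score, but libraries 12 and 9, both of batch 3, were neighbours. The difference was 44.6 (20.3 ± 29.95, SD, n = 6, against -24.3 ± 17.9, SD, n = 5; exact permutation p = 0.0173, two-sided, adjusted p = 0.121 over 7 values per library). Within batch 3 it was 5.05. Placed on the same axis, parity 2 libraries 7, 8 and 13 scored -0.73, -1.26 and -8.98, near parity 4 libraries 3, 5 and 12.

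The second component (15.9%) set apart parity 3 library 1, at -50.6, from the other parity 3 libraries at 7.26 to 16.1. The parity difference on this component was 0.12 (exact permutation p = 0.996). The 10 most abundant IDs held 14.2% of library 1's counts, against 7.99% to 8.28% in the other parity 3 libraries and 7.34% to 10.4% at parity 4. Without library 1 the fit of parity had 1405 IDs at an unadjusted p under 0.05 and called 0.

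**Figure D3:**
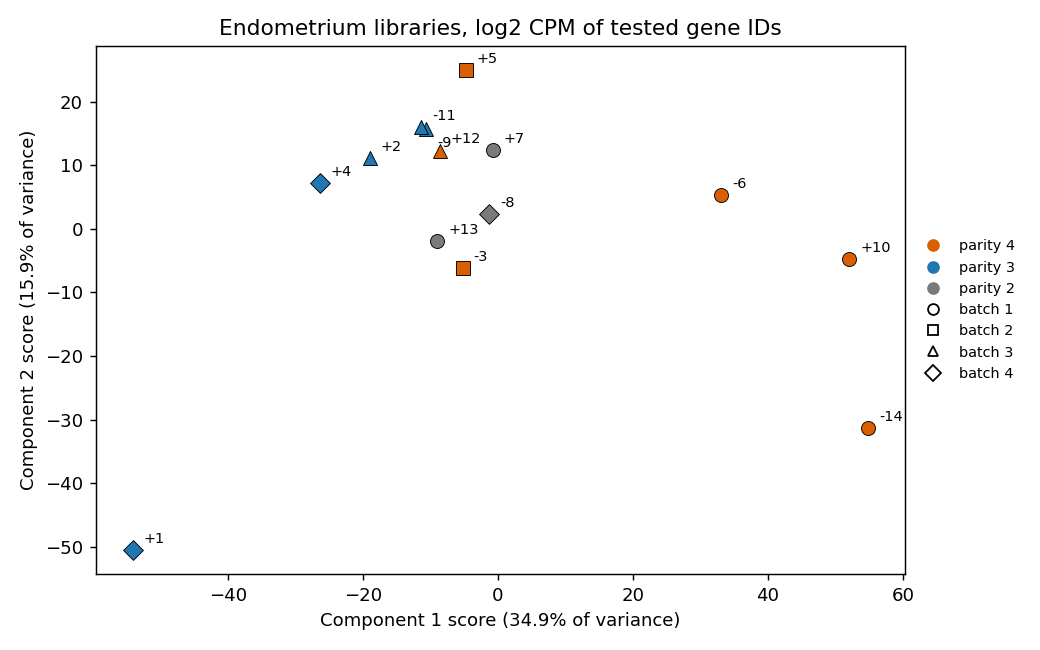
Scores of the endometrium libraries on the first component (horizontal axis, 34.9% of the variance) and the second (vertical axis, 15.9%), computed from the 11 libraries of parity 3 and 4 with parity 2 placed on the same axes. Labels give the line sign and library number; libraries 6, 10 and 14 lie to the right at 33.1 to 54.9 and library 1 at the lower left.

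Pairs of libraries were also compared directly, by the root mean square log2 difference over 9962 IDs of at least 10 CPM. In batch 3, library 12 of parity 4 was 0.357, 0.354 and 0.420 from parity 3 libraries 2, 9 and 11. Those parity 3 libraries were 0.35 to 0.378 from each other, so 2 of the 3 distances across parity lay within the range of the distances inside parity 3. Pairs of one parity in different batches had a median of 0.549 (17 pairs), and pairs that differed in both parity and batch had a median of 0.588 (27 pairs, 0.348 to 0.855). Libraries of parity 4 varied a little more among themselves, with a median SD of 0.213 in log2 CPM (n = 6) against 0.175 at parity 3 (n = 5). Over 3 libraries each, it was 0.187 for parity 4 in batch 1, 0.167 for parity 4 outside batch 1 and 0.146 for parity 3 in batch 3. Values over 3 libraries are not comparable with those over 5 or 6.

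The number of IDs at an unadjusted p under 0.05 depended on which batches were in the fit. It was 633 without batch 1 (3 parity 4 libraries fewer), 931 without batch 4, 1564 without batch 3 and 2146 without batch 2. With batch beside line and parity, where the parity contrast rests on library 12 against libraries 2, 9 and 11, it was 653, and edgeR called 0 (lowest adjusted p = 0.972). In the fit within batch 3 alone, which also held line, Fert- libraries 9 and 11 fixed only the line term. The parity contrast there was library 12 against library 2, both Fert+. The fit with batch and the fit within batch 3 both rest on 1 parity 4 library and assume that it varies like the others. Leaving out 1 library gave 1077 (without library 10) to 2029 (without library 3), and 0 calls each time. Without batch 3 edgeR called 1 ID, ENSBTAG00000021565 (log2 difference -9.57, adjusted p = 0.0313), named after its values were seen.

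**Figure D4:**
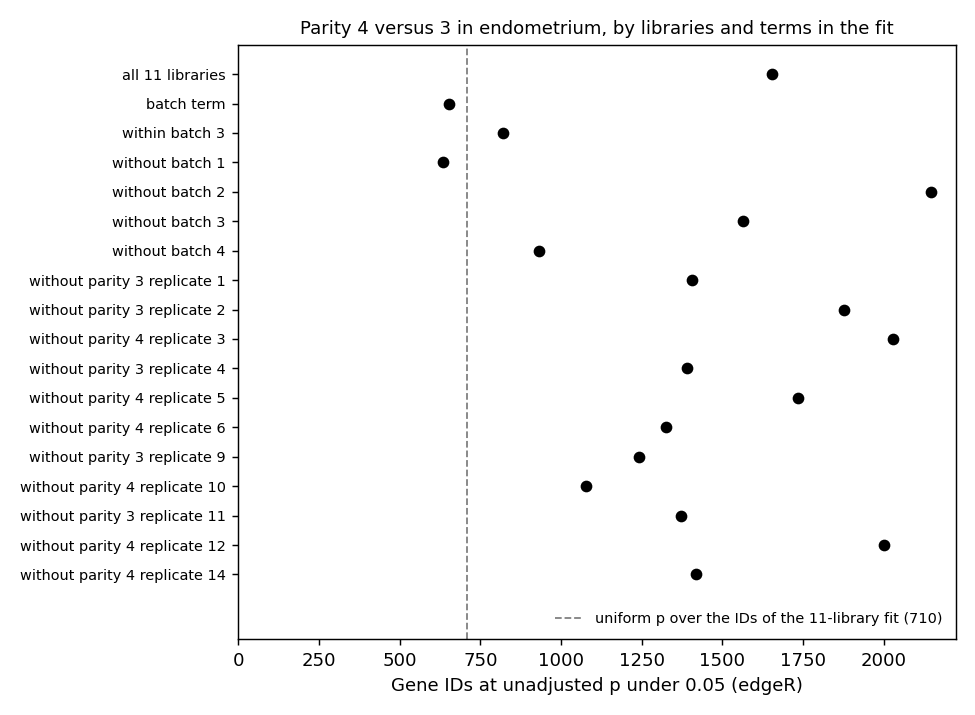
Number of gene IDs at an unadjusted p under 0.05 in edgeR's test of parity 4 against 3 (horizontal axis) for all 11 libraries and for each change of batches, terms or libraries (vertical axis); the dashed line marks the 710 that a uniform distribution gives over 14192 IDs. The count is 1654 for all libraries, and 633 without batch 1 and 653 with a batch term lie left of the line. The line was computed for the fit of all 11 libraries, and no count was tested against it.

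The batch number itself was tested inside the parities. With line and parity in the model, the 3 batch coefficients together passed for 35 of 14192 IDs (0.247%, edgeR), so batch separated some IDs among libraries of one parity. Leaving out library 3, 5, 10 or 14 gave 0 such calls, and the highest count was 77, without library 4. One of the 35 was ENSBTAG00000014567, named after its values were seen. It stood at 1107, 1720 and 1150 CPM in parity 4 libraries 6, 10 and 14 of batch 1 and at 166, 92.7 and 122 CPM in parity 4 libraries 3, 5 and 12. Parity 3 libraries held 69.6 to 145 CPM, and parity 2 libraries 7 and 13 of batch 1 held 154 and 151 CPM, so the high level was seen neither in the other parity 4 libraries nor in the other batch 1 libraries.

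Among all 14192 tested IDs, libraries 6, 10 and 14 lay above all 11 other endometrium libraries for 532 IDs and below all of them for 240. Of the 858 higher IDs 278 were of this kind, and of the 796 lower IDs 101. These counts were taken after the 3 libraries had been seen to stand apart and describe them. The 3 libraries also helped choose the higher and lower lists, so their overlap with those lists follows in part from that choice.

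Batch 1 also holds parity 2, but with an uneven layout of the lines: libraries 7 and 13 of parity 2 are both Fert+, and of parity 4 only library 10 is. With line in the model, libraries 6 and 14 fix only the line term, so the parity contrast was library 10 alone against libraries 7 and 13, with the single library assumed to vary like the others. In this fit edgeR called 17 of 14443 IDs (0.118%), all 17 higher in library 10. DESeq2 called 447 (233 higher, 214 lower) and limma-voom called 0. Without library 7 or without library 13 edgeR called 0, and without library 6 or 14 it called 7 and 6. Without the line term, where all 3 parity 4 libraries enter but a line difference mixes into the parity contrast, edgeR called 22, 21 of them higher at parity 4. The ID with the smallest p, ENSBTAG00000016121, was named after its values were seen: it stood at 17.4, 85.8 and 13.7 CPM in libraries 6, 10 and 14, at 0 counts in library 7 and at 1 count in library 13. In the other parity 4 libraries, 3, 5 and 12, it stood at 5.49, 0 and 0.234 CPM, and in parity 3 the highest was 3.63 CPM, in library 9.

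The 25 endometrium-restricted IDs had a smaller mean share of the counts at parity 4. They took 1.64%, 1.36%, 1.04%, 1.51%, 1.28% and 0.755% of the counts in parity 4 libraries 3, 5, 6, 10, 12 and 14, and 1.68%, 1.76%, 1.54%, 1.43% and 1.67% in parity 3 libraries 1, 2, 4, 9 and 11. The ranges overlapped, with libraries 3 and 10 inside the parity 3 range. The difference was -0.353 percentage points (1.26% ± 0.323, SD, n = 6, against 1.62% ± 0.131, SD, n = 5; exact permutation p = 0.0433, adjusted p = 0.152 over 7 values), so it did not pass after adjustment. Within batch 3 it was -0.346, where library 12 was below libraries 2, 9 and 11. Parity 2 libraries 7, 8 and 13 spread from 0.850% through 1.24% to 1.80%. Of the 25 IDs, 18 were lower and 7 higher at parity 4 with a median log2 difference of -0.40, beside 0.01 over all tested IDs, and 0 passed edgeR's threshold. In the fit without batch 1 the median of the 25 was -0.13, with 16 below 0. The luteal-restricted share was 0.0102% ± 0.00102 (SD, n = 6) at parity 4 and 0.0117% ± 0.00219 (SD, n = 5) at parity 3 (exact permutation p = 0.184).

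Depth and complexity differed by less than the spread of the libraries. Totals differed by 6.00e+05 counts (exact permutation p = 0.667), the number of IDs with a count by 2.77 (p = 0.976 by exact permutation), and the share of the 10 most abundant IDs by -0.729 percentage points (exact permutation p = 0.71).

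Whether the parity difference was the same in both lines was asked with a line by parity term. edgeR and limma-voom called 0 of 14192 IDs (0%; edgeR's lowest adjusted p = 0.674, 1009 IDs at an unadjusted p under 0.05 and 592 without library 9), and DESeq2 called 15, 7 with a higher parity difference in Fert+ and 8 with a lower one. Without Fert- library 11 edgeR called 1 ID, ENSBTAG00000040543 (log2 interaction -3.26, adjusted p = 0.0186), named after its values were seen. The fits of each line alone, added after seeing the data, also called 0 IDs in Fert+ and 0 in Fert-, with 1016 and 1425 at an unadjusted p under 0.05.

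For this term the 2 IDs per direction that ranked first by p did not pass in edgeR, and DESeq2 called each of the 4. ENSBTAG00000002580 stood at 121, 95.3 and 93.7 CPM in Fert+ parity 4 libraries 5, 10 and 12 and at 78.5, 76.4 and 93.1 CPM in Fert+ parity 3 libraries 1, 2 and 4. In Fert- it went the other way, with 85.0, 82.2 and 95.5 CPM in parity 4 libraries 3, 6 and 14 and 160 and 186 CPM in parity 3 libraries 9 and 11. The log2 interaction was 1.29 (SE 0.20, edgeR adjusted p = 0.674). The libraries that differ most are 9 and 11, both of batch 3.

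ENSBTAG00000018749 had the same form at a lower level. Fert+ libraries 5, 10 and 12 of parity 4 held 27.98, 25.1 and 28.02 CPM, above 17.04, 18.2 and 18.4 CPM in libraries 1, 2 and 4 of parity 3. Fert- libraries 3, 6 and 14 of parity 4 held 16.3, 20.4 and 14.96 CPM, below 26.7 and 25.6 CPM in libraries 9 and 11 of parity 3. Its log2 interaction was 1.18 (SE 0.20, edgeR adjusted p = 0.674).

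The other two IDs had an interaction below 0. ENSBTAG00000004526 stood at 83.7, 80.1 and 70.1 CPM in Fert+ libraries 5, 10 and 12 of parity 4, and at 195, 173 and 176 CPM in Fert+ libraries 1, 2 and 4 of parity 3. The Fert- libraries overlapped between parities, at 94.1, 72.8 and 127 CPM in libraries 3, 6 and 14 and 76.2 and 74.4 CPM in libraries 9 and 11 (log2 interaction -1.61, SE 0.26, edgeR adjusted p = 0.674). ENSBTAG00000012705 had 52.3, 46.5 and 54.0 CPM in Fert+ parity 4, below 57.3, 57.8 and 62.1 CPM in Fert+ parity 3. In Fert- it had 66.9, 65.3 and 78.0 CPM at parity 4, above 48.6 and 44.5 CPM at parity 3 (log2 interaction -0.82, SE 0.15, edgeR adjusted p = 0.685). For 3 of the 4 IDs the parities did not overlap within either line and differed in opposite directions, and the IDs were picked for a small p on this term.

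**Figure D5:**
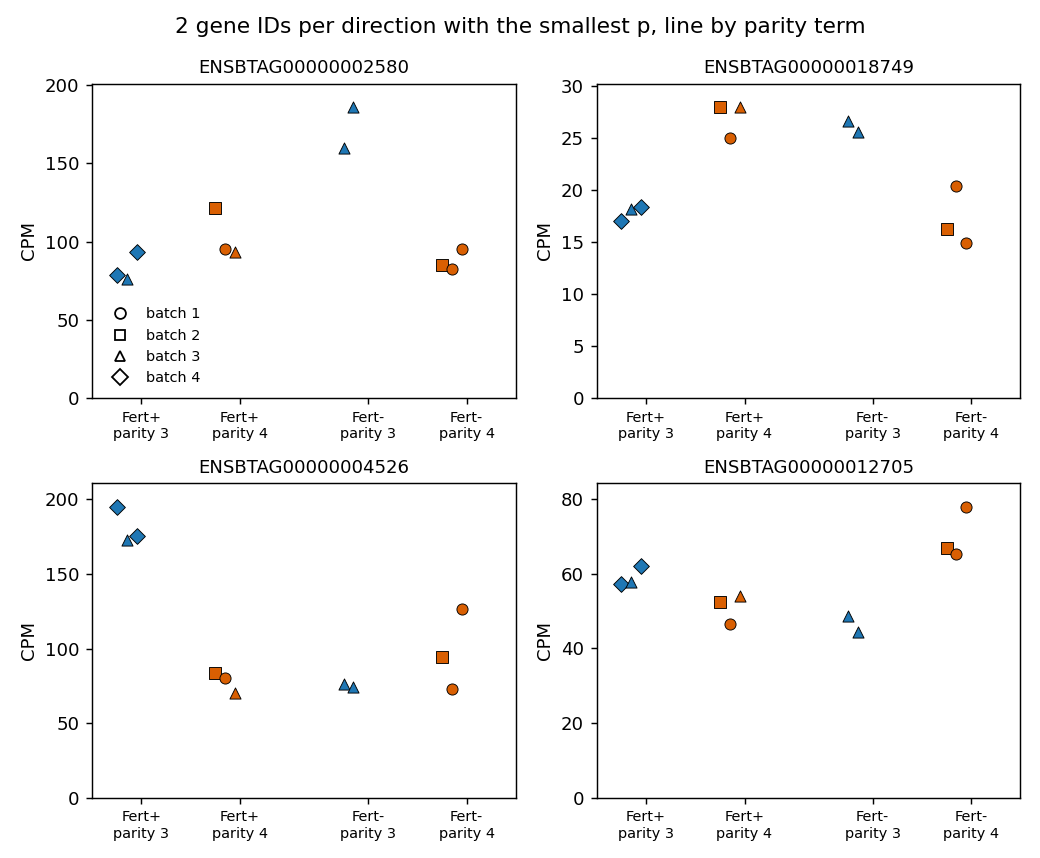
CPM (vertical axis, from 0) of the 2 IDs per direction that ranked first by p for the line by parity term, for each library by line and parity (horizontal axis; colours are parities, shapes are batches). For ENSBTAG00000018749 Fert+ moves from 17.04 to 18.4 CPM at parity 3 to 25.1 to 28.02 at parity 4, and Fert- from 25.6 to 26.7 CPM down to 14.96 to 20.4.

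With batch in the model, the IDs with the smallest p were those in which library 12 differed from its batch, and none was near the threshold (edgeR adjusted p = 0.972 for each). ENSBTAG00000017626 stood at 11.3 CPM in library 12 and at 3.05, 6.30 and 5.37 CPM in parity 3 libraries 2, 9 and 11, a log2 difference of 1.64 (SE 0.30) with batch and 0.34 (SE 0.30) without it. The other parity 4 libraries held 3.88 to 7.97 CPM, so library 12 was the highest of its parity. ENSBTAG00000009110 stood at 8.35 CPM in library 12 and at 2.59, 2.74 and 3.103 CPM in libraries 2, 9 and 11, and all 6 parity 4 libraries (3.16 to 8.35 CPM) were above all parity 3 libraries (2.59 to 3.103 CPM). Its log2 difference was 1.63 (SE 0.31) with batch and 0.92 (SE 0.28) without it.

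ENSBTAG00000015874 was lower, at 23.8 CPM in library 12 against 52.3, 34.6 and 33.9 CPM in libraries 2, 9 and 11 (log2 difference -0.99, SE 0.19, with batch, and -0.48, SE 0.15, without). ENSBTAG00000026893 had 0 counts in library 12, where 3 counts would be 0.234 CPM, and 4.19, 2.33 and 8.79 CPM in libraries 2, 9 and 11. It had 0 counts in parity 2 library 13 too, and 1.95 to 4.48 CPM in the other 5 parity 4 libraries.

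The abundant ID ENSBTAG00000047700 varied widely inside both parities. It ranged from 7.01 CPM (library 6) over a median of 208 to 2461 CPM (library 12) at parity 4 and from 38.02 CPM (library 11) over 1136 to 4887 CPM (library 1) at parity 3, with a log2 difference of -0.30 (SE 1.48, edgeR adjusted p = 0.952). The sign was not stable: it was 2.19 (SE 1.43, edgeR adjusted p = 0.972) with batch in the model. Within batch 3 the difference of mean log2 CPM was 4.15, a value that leaves line out. It sets Fert+ library 12 against Fert+ library 2 at 1136 CPM and Fert- libraries 9 and 11 at 61.8 and 38.02 CPM. With line in the fit of batch 3, library 12 stood against library 2 and the log2 difference was 1.10. Fert+ libraries averaged 959 CPM at parity 4 and 3428 CPM at parity 3, and Fert- libraries 231 and 49.9 CPM (log2 interaction -4.08, SE 2.22, edgeR adjusted p = 0.708).

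The same contrast in corpus luteum, 5 libraries of parity 4 against 5 of parity 3, gave 0 calls of 13522 IDs in edgeR (0%; lowest adjusted p = 0.122, 730 IDs at an unadjusted p under 0.05), 0 in limma-voom and 4 in DESeq2 (1 higher, 3 lower). With batch beside line in the model edgeR called 810 (104 higher, 706 lower). This contrast sets luteal library 23 alone against the 3 parity 3 libraries of its batch. Of these only library 16 is Fert+ like library 23, and Fert- libraries 25 and 27 enter through the line term. The count at an unadjusted p under 0.05 was 402 without luteal library 27, 476 without 16, 1240 without 20 and 1484 without 19. The test of the difference between tissues also called 0 of 14838 IDs in edgeR (0%; lowest adjusted p = 0.293, 1038 at an unadjusted p under 0.05) and 0 in limma-voom, and DESeq2 called 22. This test takes the libraries of both tissues as independent, which the labels do not say. Of the 858 IDs higher at parity 4 in endometrium, 793 were measured in corpus luteum, where 567 (71.5%) were higher at parity 4 with a median log2 difference of 0.12. Of the 796 lower IDs, 690 were measured and 393 were lower there, with a median of -0.05. Over all IDs measured in both, 52.0% were higher, with a median of 0.01. The batch layout of the corpus luteum is like that of the endometrium, so these shares do not separate parity from batch either.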

How the data were processed

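The libraries, the contrast and the ID lists were chosen with earlier results of these data known. Per the labels' protocols, RNA was extracted with TRIzol from frozen tissue and sequenced from TruSeq libraries, a kit without strand marking. Per the submitters' processing notes, the build was UMD3.1, and the tools named are STAR 2.3.0, featureCounts, Trim Galore, FastQC 0.10.0 and CASAVA 1.9. Annotation release, strand setting and handling of reads with several matches are not stated there, so overlapping or near-identical genes are uncertain. The authors deposited whole-number read counts for 24616 Ensembl IDs per library, not normalised, and 4236 (17.2%) had no count in any library. None of the IDs matched the gene table (ARS-UCD2.0, 0 matches), so the 13 gene lists and the cell type markers prepared by symbol were not tested.

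Fits used R 4.3.3 and edgeR 4.0.16: filterByExpr by parity, TMM (trimmed mean of M values) scaling, a robust quasi-likelihood fit with line and parity, and an F test with Benjamini-Hochberg adjustment (threshold 0.05). Fold changes are log2, parity 4 over parity 3. CPM values carry TMM factors over the 14 endometrium libraries (12 in corpus luteum), and log2 CPM uses a prior count of 2. Alternatives were limma 3.58.1 (voom, quality weights), DESeq2 1.42.0, RLE and upper-quartile scaling, other low-count filters, no line term, a batch term, leaving out each batch or library, and all 14 libraries. DESeq2 gave no adjusted p for 361 IDs. Values with 1 number a library were tested by exact permutation of the parity labels (462 relabelings, smallest p = 0.00216) and again within line (200). Named IDs are the 2 with the smallest p in each direction for parity, for parity with batch and for the line by parity term, and ENSBTAG00000047700. The scripts were tested on simulated data.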

Additional observations from a re-analysis of the deposited data

Results flagged for a closer look

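A library was singled out where it lay far from the next one of the same parity, relative to the whole range of that parity. The nominal rate of this rule is 1 of 20 groups of values. It was met in 8 of 44, where that rate gives 2.2. The groups share the same libraries and many hold skewed CPM values, so the rate may not hold here and no excess was tested. The IDs among the 8, apart from ENSBTAG00000047700, had been picked for small p. Parity 3 library 1 (Fert+, batch 4) held 14.2% of its counts in the 10 most abundant IDs, with the next parity 3 library at 8.28%, and scored -50.6 on the second component, with the next at 7.26. Parity 4 library 10 held 15.7 CPM of ENSBTAG00000047815, with the next parity 4 library at 4.196, and 85.8 CPM of ENSBTAG00000016121, with the next at 17.4. Parity 3 library 9 held 3.63 CPM of ENSBTAG00000016121, with the next at 0.152. Parity 4 library 6 was low in ENSBTAG00000003458, at 46.9 CPM, with the next at 66.7. Parity 4 library 5 held 121 CPM of ENSBTAG00000002580, with the next at 95.5. Parity 4 library 12 held 2461 CPM of ENSBTAG00000047700, with the next at 616.

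For 3 IDs every Fert+ library of parity 4 stood on one side of the Fert+ libraries of parity 3, and every Fert- library of parity 4 on the other side of the Fert- libraries of parity 3. Their log2 interaction of line and parity was 1.29 for ENSBTAG00000002580, 1.18 for ENSBTAG00000018749 and -0.82 for ENSBTAG00000012705. None passed in edgeR (adjusted p = 0.674, 0.674 and 0.685), and all were picked for a small p on this term.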

How the results depend on the processing

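For parity 4 against 3, edgeR and limma-voom called 0 IDs under each alternative run except the fit without batch 3 (1), and DESeq2 called 276. With all 14 endometrium libraries, 1746 IDs had an edgeR unadjusted p under 0.05 with parity as classes, and 902 with parity as a number. With parity as a number, the log2 difference per calving was -0.21 (SE 0.21) for ENSBTAG00000003458 and -0.44 (SE 0.31) for ENSBTAG00000019386. It was 0.60 (SE 0.23) for ENSBTAG00000038532 and 1.20 (SE 0.60) for ENSBTAG00000047815. For the line by parity term DESeq2 called 15, and leaving out 1 library gave 0 to 1 (1 without library 11). In corpus luteum DESeq2 called 4, and a batch term gave 810 (104 higher, 706 lower). That contrast rests on library 23 against 3 others of batch 3, of which only library 16 shares its line. The tissue difference gave 22 in DESeq2. The batch test gave 55 IDs with no low-count filter, 468 in DESeq2 and 0 to 77 leaving out 1 library; without library 12 it could not be fitted. Parity 4 against 2 in batch 1 (library 10 against 7 and 13) gave 79 with no filter, 447 in DESeq2, 0 in limma-voom and 0 to 7 leaving out 1 library, a choice made after seeing the data. The cause of these changes was not tested.

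ENSBTAG00000017626 turned to -0.41 without batch 3. ENSBTAG00000047700 had no stable sign. It was 2.19 with a batch term, and 1.10 within batch 3 with line in the model (library 12 against library 2). It was 0.80 without batch 1, 1.09 without batch 4, 2.21 in Fert- alone and -1.26 to 0.45 leaving out 1 library. The other 7 IDs named for parity with or without batch, and the 4 for the line by parity term, kept their direction under every alternative run for them. Leaving out 1 library moved the parity difference of totals from -40760 to 1350000, of IDs with a count from -39.6 to 57.6, of the 10 most abundant IDs from -1.08 to 0.477 points and of the second component from -12.5 to 6.40; within batch 3 these were -1256000, -107, 0.680 and -2.01. The endometrium-restricted difference ranged from -0.429 to -0.252 (exact permutation p from 0.0159 to 0.1). With 1 parity 4 library in the only shared batch, parity inside a batch has no replicate at parity 4.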
